A study of Mus musculus with 8 samples.

Results

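The left kidneys of 2 control-miRNA mice (numbers 1 and 5 in the labels) were compared with those of 2 sham mice (numbers 1 and 4), which are 4 of the 8 samples and all samples of these 2 groups. The groups were taken from the sample titles, with no use of measured values. The control-miRNA mice received 5 nmol of a control miRNA bound to polyethylenimine nanoparticles in 200 µl through the tail vein, and 2 days later had the right kidney removed and the left kidney clamped for 45 min and reperfused. The sham mice had a midline abdominal incision, kept both kidneys and received no injection. All kidneys were taken 24 h after surgery, and RNA came from 30 mg of each. The labels give no genotype, strain, sex or age. The 2 IRI mice (numbers 30 and 34), which had the same injury surgery and no injection, are used to set the values beside injury alone. No group had the nanoparticles without the injury. The clamping, the loss of the right kidney, the injection and the position on the slide therefore cannot be told apart in the comparison with sham.

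Ischaemia and reperfusion deprive the kidney of blood and then restore it, and the proximal tubule, which reabsorbs most of the filtrate and depends on mitochondrial respiration, is the segment most sensitive to it. Surviving tubule cells lose transporters and brush border enzymes, express injury genes such as Havcr1 and Lcn2, and can re-enter the cell cycle. Polyethylenimine is a cationic polymer that binds nucleic acids, enters cells by endocytosis and can release its cargo from endosomes. A control miRNA is a small RNA with a sequence chosen to lack natural targets, and it shows what the carrier and any small RNA do.

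The control miRNA is shown because it is what these mice received, with the bases that a miRNA uses most to find its targets (bases 2 to 8, the seed) in capitals, 5′ to 3′.
Control miRNA: gGUUCGUAcguacacuguuca
None of the 1679 mature mouse miRNAs in the RefSeq table has this seed, and none shares bases 2 to 7 of it.

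Expression was measured on 1-colour arrays, 1 per mouse. A level is the log2 processed signal minus that of the 75th percentile of the same array, so that 0 marks the percentile, and levels are compared between mice for 1 gene and not between genes. Differences are control-miRNA minus sham, given as log2 ± standard error with n = 2 mice per group. A gene is called, and said to have risen or fallen, where the Benjamini-Hochberg adjusted p of limma over 21264 genes was under 0.05. The mice carry separate numbers and were taken as separate animals. The p-values and standard errors rest on the spread between mice of a group, pooled by limma over all 4 groups of 2 mice. The remaining group is the mimic mice, which had 45 min of clamping and 5 nmol of a miRNA mimic. On the 4 arrays 55.7% to 58.0% of spots were well above background, and the 75th percentile of signal was 408 and 476 in sham and 500 and 416 in control-miRNA mice. The number of arrays limits the precision. Taken over genes, control-miRNA 1 and 5 differed with an SD of 0.515, against 0.327 for the sham pair and 0.390 for the IRI pair. The mimic pair, which also enters the pooled spread, had the largest SD (0.669). Defining markers of the proximal tubule, loop of Henle, distal convoluted tubule, collecting duct, podocytes and endothelium were well above background in all 4 mice, as kidney tissue should show. Of the markers of other tissues, Apoa1, Cyp11b1, Adipoq, Plin1, Upk1b and Ckm, and the B cell gene Cd79a, were above background in none of the 4. The liver gene Alb, the muscle gene Acta1, the red cell genes Hbb-b1 and Alas2 and the B cell gene Ms4a1 were above background in all 4, the steroidogenic gene Star in both control-miRNA mice, and the urothelial gene Upk2 in 1 sham mouse.

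The injured, injected kidneys differed from sham in a large part of the transcriptome. Of 21264 genes 3687 were called (17.3%), of which 2030 were higher (9.55%) and 1657 lower (7.79%), and 2440 changed at least 2-fold (11.5%). These shares are the background for the gene groups below. The gene lists were chosen with earlier results of these data known, so their counts and medians are descriptions and not tests. The 2 groups did not overlap in 14601 genes (68.7%), and the median difference over all genes was -0.05. The count rests on having 2 mice on each side. It was 694 without sham 1, 721 without sham 4, 1051 without control-miRNA 1 and 2456 without control-miRNA 5, and 559 genes were called in all 4 of these fits. Of the 167 genes named by rule that were called, 86 were called in all 4 fits. The IRI comparison with the same sham mice called 3891 genes (18.3%), 2009 higher (9.45%) and 1882 lower (8.85%).

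**Figure D1:**
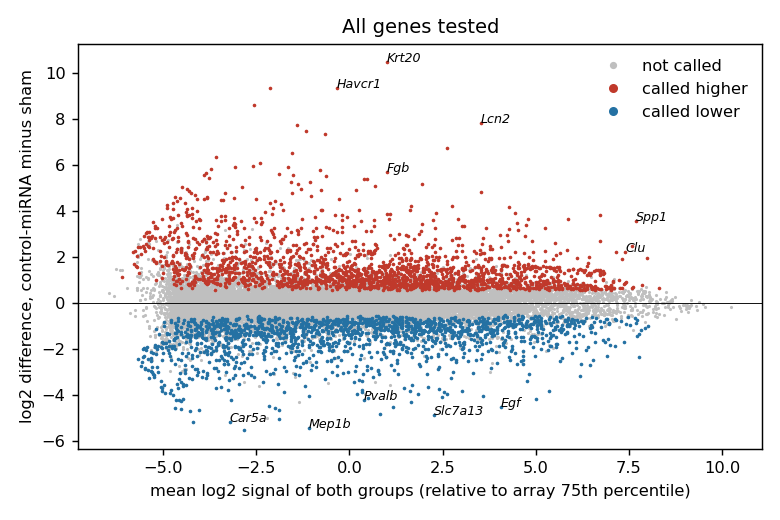
Log2 difference between control-miRNA and sham (vertical) against the mean log2 level of both groups (horizontal) for each of the 21264 genes, with called genes in red (2030 higher) and blue (1657 lower). Krt20, Havcr1 and Lcn2 lie at the top, and Mep1b, Car5a and Slc7a13 near the bottom.

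The largest rises included genes that mark damaged tubules. On the tubular injury list 30 of 35 genes rose and 0 fell, with a median difference of 3.25 against -0.05 over all genes. Krt20, a keratin of simple epithelia, was at -4.26 and -4.22 in sham mice and at 6.40 and 6.08 in control-miRNA mice, a rise of 10.48 ± 0.40 (adjusted p = 0.000307). Havcr1, which encodes the phosphatidylserine receptor and injury marker KIM-1, was at -5.31 and -4.72 in sham mice and at 4.44 and 4.25 in control-miRNA mice. It was not well above background in sham and was at least 497-fold higher after injury (adjusted p = 0.000218). Here "at least" divides the mean of the bright group by that of the dim group, with each dim array set to no less than its lowest signal well above background. In each of these genes the groups were far apart and the mice of a group close together. The Krt20 probe lies at chr11:99289776-99289835 and the Havcr1 probe at chr11:46592056-46592115 (mm9, as in the files).

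Lcn2, which encodes the siderophore-binding protein NGAL, was at -0.22 and -0.57 in sham mice and at 7.77 and 7.13 in control-miRNA mice (difference 7.84 ± 0.51, adjusted p = 0.000985). Timp1, an inhibitor of matrix metalloproteinases, rose by 5.11 ± 0.21 from -2.08 and -1.66 to 3.43 and 3.04. Spp1, which encodes the secreted phosphoprotein osteopontin, rose by 3.58 ± 0.18 and the chaperone gene Clu by 2.24 ± 0.28. Sprr2f, a cornified envelope protein gene, was not well above background in sham and was at least 152-fold higher. The metalloproteinase gene Mmp7 was at least 14.9-fold higher, and its call was lost without sham 1, sham 4 or control-miRNA 1 (largest adjusted p 0.0635). The members not called ranged from -0.15 to 1.52. The list kept 22 to 29 called members when any 1 of the 4 mice was left out, with a median of 2.56 to 3.15. Levels in the IRI mice lay beside those of the control-miRNA mice in the plot of injury markers.

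**Figure D2:**
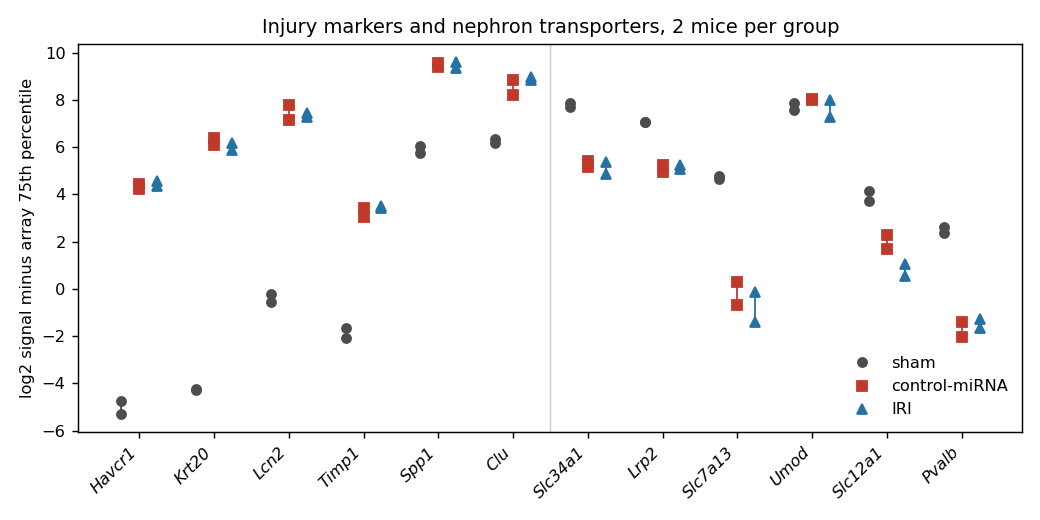
Log2 level (vertical) of 6 injury markers and 6 nephron genes in each sham, control-miRNA and IRI mouse, with a line joining the 2 mice of a group. The control-miRNA mice lie far above sham for Havcr1 (4.44 and 4.25 against -5.31 and -4.72) and below it for Slc34a1 (5.42 and 5.16 against 7.71 and 7.85), and Umod does not separate them clearly (8.03 and 7.98 against 7.57 and 7.85).

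Other large rises lay outside the injury list. Slpi, a secreted leukocyte protease inhibitor, was at -4.91 and -5.68 in sham and at 1.85 and 3.11 in control-miRNA mice, at least 145-fold higher by this probe, while a second probe of the gene gave -0.14. Crct1, a cysteine-rich gene of the epidermal differentiation region, was at least 85.1-fold higher. Lgi2 was at least 40.8-fold, the transglutaminase subunit gene F13a1 at least 12.9-fold and Smpdl3b, a lipid phosphodiesterase gene, at least 11.9-fold higher. Flnc, which encodes the actin crosslinker filamin C, rose by 5.79 ± 0.19 from -3.61 and -3.74 to 2.21 and 2.03. Its second probe gave a smaller rise of 2.91. The neuropeptide precursor gene Vgf was at least 88.9-fold higher but differed widely between the 2 injured mice (3.36 and 0.19), and its second probe gave 1.42.

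Many proximal tubule transcripts fell. Of 33 transport genes of this segment 20 fell and 1 rose (Slc6a18), with a median of -1.35. Of 34 of its enzyme genes 22 fell and 2 rose (Pck1 and Cyp24a1), with a median of -1.80. These are bulk samples, in which fewer cells of a type and less RNA per cell cannot be told apart. Slc34a1, the sodium-phosphate cotransporter of the brush border, was at 7.71 and 7.85 in sham mice and at 5.42 and 5.16 in control-miRNA mice (-2.49 ± 0.30, adjusted p = 0.00399). Lrp2, which encodes the endocytic receptor megalin, went from 7.06 and 7.08 to 4.95 and 5.24 (-1.98 ± 0.19). The amino acid transporter gene Slc7a13 changed by -4.90 ± 0.63 and Slc7a7 by -1.75 ± 0.16. In each of these the groups did not overlap, which held for 68.7% of all genes.

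Among the enzymes, Hao2, a peroxisomal hydroxyacid oxidase, went from 4.16 and 4.76 to 0.80 and 0.41 (-3.86 ± 0.33, adjusted p = 0.00166). Its groups did not overlap, which also held for 68.7% of all genes. Ttc36 changed by -3.96 ± 0.35 and the dipeptidase gene Dpep1 by -2.0 ± 0.19. Car5a, a mitochondrial carbonic anhydrase, was above background in both sham mice and in neither control-miRNA mouse, at least 17.1-fold lower. The brush border protease gene Mep1b fell in both injured mice but to different levels (1.63 and 1.63 in sham, -5.23 and -2.41 in control-miRNA mice). Its call was lost without sham 1, sham 4 or control-miRNA 1 (largest adjusted p 0.108). The 20 transport and 22 enzyme calls became 4 and 10 without sham 1, 4 and 9 without sham 4, 6 and 12 without control-miRNA 1, and 16 and 21 without control-miRNA 5. The medians of both lists stayed below 0 in those fits, from -1.54 to -1.09 for transport and from -2.0 to -1.56 for enzymes.

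The other large falls included further epithelial genes. Fam151a went from 3.46 and 3.42 to -0.86 and -1.31 (-4.53 ± 0.20, adjusted p = 0.000415), the lectin-like gene Clec2h from 3.16 and 3.29 to -1.38 and -1.81 (-4.83 ± 0.25), and the steroid dehydrogenase gene Hsd3b2 from 3.99 and 3.63 to -0.48 and -0.53. Pde6a, a phosphodiesterase subunit gene, changed by -5.05 ± 0.30 and was above background in 1 of 2 control-miRNA mice, as were Adgrg4, Smcp, Slc7a12 and Mep1b. Mylk3, a myosin kinase gene, was at least 4.98-fold lower. Adgrg4 (-5.55 ± 0.91), Smcp (-4.50 ± 0.77), Slc22a22 (-4.68 ± 1.15), Slc22a27 (at least 4.45-fold lower) and Slc7a12 (-4.58 ± 1.21) were called too, and each lost its call without sham 1 and without sham 4 (largest adjusted p from 0.0724 for Adgrg4 to 0.212 for Slc7a12).

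In the loop of Henle list 6 of 21 genes fell and 1 rose (median -0.90), in the distal convoluted and connecting tubule list 5 of 16 fell (median -0.81), and in the collecting duct list 6 of 25 fell and 1 rose (median -0.45). Egf, the growth factor precursor made by the distal nephron, was at 6.01 and 6.62 in sham mice and at 1.38 and 2.22 in control-miRNA mice, with a wide error (-4.52 ± 1.11, adjusted p = 0.0366). Umod, the loop of Henle gene for uromodulin, was not called (0.30 ± 0.26). Slc12a1, the NKCC2 cotransporter of the same segment, went from 3.73 and 4.15 to 1.69 and 2.28 and missed the threshold (adjusted p = 0.0646). Pvalb, the calcium-binding protein of early distal convoluted tubule, changed by -4.22 ± 0.41 and was called in all fits without 1 mouse.

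In the same lists Emx1, a transcription factor gene, changed by -1.53 ± 0.15, Calb1 (calbindin) by -1.32 ± 0.25 and Kl, the co-receptor Klotho, by -2.43 ± 0.50. In intercalated cells of the collecting duct, Slc26a4 (pendrin), Atp6v1b1 (a proton pump subunit) and Rhbg (an ammonia channel) changed by -1.01 ± 0.17, -0.96 ± 0.17 and -1.08 ± 0.20, and the chloride-bicarbonate exchanger gene Slc4a1 by -3.08 ± 0.68. The water channel gene Aqp2 of principal cells was at 2.58 and 2.62 in sham and at 2.67 and 2.18 in control-miRNA mice and was not called. Without sham 1 or without sham 4 the loop and collecting duct lists had 0 calls and the distal list 2, and Egf, Calb1, Kl and the 4 intercalated cell genes lost theirs (largest adjusted p 0.0999 to 0.171). The loop and collecting duct lists also had 0 calls without control-miRNA 1. Under other processing the loop list had from 2 falls (no filter on dim probes) to 12 (without the mimic arrays). The endothelial list had 1 call of 25, Tie1 (-1.11 ± 0.24), lost whichever of the 4 mice was left out, with a list median of -0.51.

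Immediate early genes, which code for transcription factors and feedback regulators made within minutes to hours of a stimulus, were measured at 24 h. Of 29 measured 22 rose and 0 fell, with a median of 1.80. Fosl1, an AP-1 subunit, was not well above background in sham and was at least 12.6-fold higher (-6.61 and -6.34 in sham, -0.60 and -1.48 in control-miRNA mice). Maff, a small Maf factor above background in 1 of 2 sham mice, rose by 4.04 ± 0.39, Myc by 3.15 ± 0.30, Cebpb by 2.25 ± 0.15 and the antiproliferative gene Btg2 by 2.19 ± 0.29. Cebpb was at 1.72 and 1.77 in sham and at 3.93 and 4.06 in control-miRNA mice. The list kept 15 to 21 calls with any 1 mouse left out. The 7 members not called ranged from 0.05 to 1.24. The IRI mice had 23 of 29 called higher against the same sham mice, with a median of 1.91.

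Feedback genes of NF-kB signalling, whose products restrain or carry on the response to inflammatory signals, were measured as a group. Of 19 measured 11 rose and 0 fell, with a median of 0.72, and 7 rose with no filter on dim probes. Nfkbiz, an atypical inhibitor, went from -3.21 and -2.94 to -1.14 and -0.50 (2.26 ± 0.25), the subunit gene Nfkb2 from 0.76 and 0.69 to 2.13 and 2.67 (1.68 ± 0.21) and the adhesion molecule gene Icam1 from 1.07 and 1.29 to 2.65 and 3.31 (1.80 ± 0.24). Relb changed by 1.74 ± 0.21 by its brightest probe, but its 3 probes ranged from -0.61 to 3.36 and their median was -0.10. Nfkbia, the inhibitor IκBα, rose by 0.92 ± 0.18 (named after its value was seen). The counts without 1 mouse were 3, 4, 6 and 6, in the order sham 1, sham 4, control-miRNA 1, control-miRNA 5. Icam1 lost its call without sham 1 (adjusted p = 0.052). The promoter of Nfkbia, a member of this list, is shown because it was picked for a match in the 250 bases before the gene's start. It lies at chr12:55492648-55492897 on the minus strand (RefSeq, GRCm38.p6), 5′ to 3′, with the match to an NF-kB motif (GGGA, any 1 base, TTTCC, on either strand) in capitals.
Nfkbia promoter: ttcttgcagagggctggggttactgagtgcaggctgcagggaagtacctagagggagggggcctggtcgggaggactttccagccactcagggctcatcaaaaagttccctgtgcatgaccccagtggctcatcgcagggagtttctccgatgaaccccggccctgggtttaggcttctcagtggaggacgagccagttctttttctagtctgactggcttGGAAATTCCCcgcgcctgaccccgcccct
This motif was found in 0.414% of the 27025 genes with a promoter in the table and in 2 of 16 genes of the list with one (Nfkb2 and Nfkbia). The match is a description of the letters and not of binding. The serum response motif, known as the CArG box, was in 3 of 23 immediate early promoters (Egr2, Dusp5 and Zfp36) against 1.62% of all, and the AP-1 letters TGANTCA in 0 of 23 against 7.82%.

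Cytokines and chemokines moved in both directions. Of 29 measured 9 rose and 2 fell, with a median of 0.96, and 5 rose with probes above background on all 8 arrays. Cxcl1, a neutrophil attractant, was at -3.18 and -3.62 in sham mice and at 1.47 and 2.77 in control-miRNA mice (5.52 ± 0.41, adjusted p = 0.00124). Il1f6, an epithelial cytokine of the IL-1 family (IL-36 alpha), was at -6.55 and -6.95 in sham and at -1.07 and 0.32 in control-miRNA mice, at least 20.0-fold higher. The macrophage growth factor gene Csf1 rose by 2.34 ± 0.19 and Clcf1, an IL-6 family cytokine, was at least 4.24-fold higher. Cxcl9, a T cell attractant induced by interferon gamma, was at -2.16 and -1.21 in sham and below background in both injured mice, at least 8.08-fold lower. The other fall was in the chemokine gene Ccl4 (-2.21 ± 0.41, above background in 1 of 2 control-miRNA mice, named after its value was seen). The call of Cxcl9 was lost whichever of the 4 mice was left out (largest adjusted p 0.119). Of 16 markers of T and NK cells 3 fell, 0 rose and 13 were not called. Their share called was 18.8%, against 17.3% of all genes, of which 7.79% were lower. The summed linear level of the list, in units of the 75th percentile, was 6.29 to 8.10 in sham and 4.22 to 5.09 in control-miRNA mice. Such a sum is carried mostly by the brightest genes of a list. Of the 3 that fell, Cd5 and Klrb1c were at least 2.35-fold and 2.58-fold lower, and Nkg7 changed by -2.79 ± 0.76. Without sham 1 all 3 lost their calls (largest adjusted p 0.0799 to 0.204). The part of these cells in the fall of Cxcl9 was not tested.

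A foreign RNA on a cationic carrier can be read by innate sensors, so these genes were set out as a group. Of 27 sensors and adaptors of foreign nucleic acid 9 rose and 0 fell, with a median of 0.46. Ddx58, the cytosolic sensor RIG-I, went from 0.99 and 1.06 to 2.38 and 2.51 (1.42 ± 0.18, adjusted p = 0.0051) and Eif2ak2, the double-stranded RNA kinase PKR, from -0.61 and -0.55 to 0.82 and 0.87. Sting1, the adaptor of DNA sensing, rose by 2.14 ± 0.21 and the antiviral zinc finger gene Zc3hav1 by 1.31 ± 0.16. The IRI mice, which had no injection, had 9 of 27 called higher and 1 lower against the same sham, with a median of 0.52, and their Ddx58 levels were 2.51 and 2.35. The control-miRNA and IRI mice differed by 0.01 in RIG-I (95% interval -0.43 to 0.44) and by -0.30 in PKR (-0.79 to 0.19), and neither difference was called. The list had 2, 3, 7 and 7 calls without sham 1, sham 4, control-miRNA 1 and control-miRNA 5. RIG-I and Zc3hav1 lost theirs without sham 1 (adjusted p = 0.0512 and 0.0502), and PKR without either sham mouse (largest adjusted p 0.0638).

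Interferon-stimulated genes are the usual output of these sensors. Of 28 measured 3 rose and 1 fell, with a median of 0.19. That share called, 14.3%, was no higher than the 17.3% of all genes. Ifi27 rose by 0.74 ± 0.16, Bst2 (tetherin) by 0.87 ± 0.21 and Ifi35 by 0.75 ± 0.21, and the nucleotide kinase gene Cmpk2 changed by -0.90 ± 0.23. All 4 calls were lost whichever of the 4 mice was left out (largest adjusted p 0.159 to 0.219). In control-miRNA 1 the list median was 0.06 above the sham mean and in control-miRNA 5 it was 0.30. Limma called 0 of 18 genes of the miRNA pathway (2 had an unadjusted p under 0.05), and Ago2, the slicing Argonaute, differed by 0.45 ± 0.16 (adjusted p = 0.101) and Dicer1 by -0.59 ± 0.29. Among 27 genes of endocytic entry, including heparan sulphate proteoglycans that cationic particles bind, 5 rose and 3 fell. Gpc4 and Sdc2 changed by -1.17 ± 0.15 and -1.11 ± 0.15, the raft protein gene Flot1 by 1.51 ± 0.26 and the scavenger receptor gene Scarb1 by 1.08 ± 0.22. Without either sham mouse the entry list had 0 calls, and these 4 genes lost theirs (largest adjusted p 0.056 to 0.119).

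Part of the complement and acute phase genes rose, with large differences between the 2 injured mice. Of 24 measured 10 rose and 2 fell, with a median of 1.69. The median depended on the processing. It was 0.43 with normexp background correction, 0.72 with no filter on dim probes, 0.15 over the 18 genes with probes above background on all 8 arrays and 0.65 with the median of a gene's probes, with 7 to 9 rises. The fibrinogen chain gene Fgb was at -2.18 and -1.52 in sham mice and at 2.83 and 4.87 in control-miRNA mice (5.70 ± 0.63, adjusted p = 0.00305), and Fgg was at 1.08 and 1.15 and then at 5.12 and 6.77 (4.83 ± 0.58). The protease inhibitor gene Serpina3n was at least 1.71-fold higher. Hp (haptoglobin) rose by 2.69 ± 0.38 and Lrg1, a leucine-rich glycoprotein gene, by 4.03 ± 0.70. Relative to the sham mean, the list median was 0.71 in control-miRNA 1 and 2.37 in control-miRNA 5, and 1.66 and 2.20 in the IRI mice. The list had 3 and 4 calls higher without sham 1 and sham 4, 11 without control-miRNA 1 and 8 without control-miRNA 5. Lrg1 lost its call without either sham mouse (largest adjusted p 0.0785) and Hp without sham 1 (adjusted p = 0.0502). Hepatocytes also make these proteins. Of 8 hepatocyte markers measured 3 fell and 0 rose, with a median of -0.98. Their summed level was 104 to 105 in sham, 19.5 to 96.4 in control-miRNA and 49.4 to 55 in IRI mice. This sum is carried mostly by the brightest genes of the list, to which Alb adds little, and is no measure of hepatocyte RNA. The albumin gene Alb was at -1.40 and -0.50 in sham and at -2.09 and -2.23 in control-miRNA mice, and Apoa1 was above background in none. The part of hepatocyte RNA was not tested.

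Of 13 neutrophil genes 7 rose and 0 fell, with a median of 2.20, and 2 rose with probes above background on all 8 arrays. The calprotectin subunit genes S100a8 and S100a9 went from -3.52 and -3.19 to 1.14 and 1.48 (4.66 ± 0.36, adjusted p = 0.00134) and from -0.80 and -1.03 to 2.64 and 3.25 (3.86 ± 0.39). Retnlg was at least 14.9-fold higher and Il1r2, the decoy receptor for IL-1, at least 11.1-fold higher. Ly6g, a surface marker of neutrophils, was at 0.12 and 0.26 in sham and at 1.48 and 0.80 in control-miRNA mice and was not called (adjusted p = 0.231). The list had 4 to 6 calls without 1 of the 4 mice. With the dim probes kept in, the list median was 0.91. The summed level of the list, carried mostly by its brightest genes, was 47.3 to 52.9 in sham, 53.3 to 66.2 in control-miRNA and 46.9 to 53.5 in IRI mice.

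Of 21 macrophage genes 5 rose and 1 fell, with a median of -0.03. Cd14, the lipopolysaccharide co-receptor, rose by 3.35 ± 0.25, the lysosomal marker Cd68 by 2.58 ± 0.21 and the lipid receptor gene Trem2 by 2.26 ± 0.34. Csf1r, the receptor of CSF1 and a marker of resident macrophages, changed by -1.32 ± 0.20 by its brightest probe and by -0.08 by the other. Adgre1, which encodes F4/80, was not called (-0.52 ± 0.24). Trem2 lost its call without either sham mouse (largest adjusted p 0.0654) and Csf1r without sham 1 or control-miRNA 1 (0.0759). The list had 2, 2, 3 and 3 rises without sham 1, sham 4, control-miRNA 1 and control-miRNA 5. Limma called 0 of 5 B cell genes (2 had an unadjusted p under 0.05), and of 7 erythroid genes Hemgn rose (1.56 ± 0.30) and Slc4a1, also an intercalated cell gene, fell. Hemgn lost its call without either sham mouse or without control-miRNA 1 (largest adjusted p 0.123).

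Of 23 genes of fibroblasts, mural cells and their matrix 6 rose and 2 fell, with a median of 0.47. Tnc, the matrix glycoprotein tenascin C, was not well above background in sham and was at least 4.61-fold higher. Postn (periostin), above background in 1 of 2 sham mice, went from -4.66 and -4.62 to -2.52 and -2.53 (2.12 ± 0.23, adjusted p = 0.00284) and Col5a1 from -1.46 and -1.41 to 0.38 and 0.08 (1.67 ± 0.20). The fibrillar collagen genes Col1a1, Col3a1 and Col1a2 rose by 2.51 ± 0.38, 1.84 ± 0.35 and 0.94 ± 0.24 (named after their values were seen). The elastic fibre gene Fbln5 changed by -1.76 ± 0.23 and Dcn, the proteoglycan decorin of resting fibroblasts, by -1.61 ± 0.31. The summed level of the list was 105 to 134 in sham, 159 to 249 in control-miRNA and 135 to 150 in IRI mice. The list had 3 rises without sham 1, sham 4 or control-miRNA 1 and 6 without control-miRNA 5.

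Of 33 cell cycle genes 15 rose and 0 fell, with a median of 1.67, among them genes of DNA replication. The replicative helicase subunit genes went from -0.97 and -0.60 to 1.62 and 1.11 for Mcm2 (2.15 ± 0.26, adjusted p = 0.00428), from -0.56 and -0.22 to 2.93 and 2.21 for Mcm3 (2.96 ± 0.42) and from 0.02 and 0.39 to 2.75 and 2.02 for Mcm4 (2.17 ± 0.31). Mcm5 went from -1.71 and -1.32 to 1.69 and 0.50 (2.61 ± 0.43). The 2 injured mice differed. In 32 of the 33 genes control-miRNA 1 lay above control-miRNA 5, against 44.6% of all genes, and the list median over the sham mean was 2.40 in the former and 0.78 in the latter. The list had 20 calls without control-miRNA 5, 4 without control-miRNA 1, 2 without sham 1 and 3 without sham 4. Mcm3 and Mcm4 lost their calls without sham 1 (adjusted p = 0.056 and 0.0568), and Mcm5 without either sham mouse (largest adjusted p 0.0792). The Mcm5 promoter is shown as an example of the E2F letters TTTNNCGC, with its 2 overlapping matches (1 on each strand) in capitals. It lies at chr8:75109259-75109508 on the plus strand (RefSeq, GRCm38.p6), 5′ to 3′.
Mcm5 promoter: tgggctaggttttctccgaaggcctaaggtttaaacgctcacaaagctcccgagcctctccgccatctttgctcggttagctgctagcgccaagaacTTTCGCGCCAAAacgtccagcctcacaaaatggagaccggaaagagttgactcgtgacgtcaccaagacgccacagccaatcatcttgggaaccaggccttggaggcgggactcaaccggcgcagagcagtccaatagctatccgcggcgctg
These letters were in 6 of 27 cell cycle promoters (Cdk1, Cdk2, Mcm5, Mcm6, Mcm7 and Cdc6) and in 4.94% of all promoters in the table. They were also in 3 of 16 NF-kB feedback promoters and in 2 of 23 immediate early promoters.

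Target genes of p53 include several that stop the cell cycle. Of 24 measured 9 rose and 1 fell, with a median of 0.79. Cdkn1a, the cyclin-dependent kinase inhibitor p21, was at -2.49 and -2.59 in sham mice and at 2.54 and 1.48 in control-miRNA mice (4.55 ± 0.58, adjusted p = 0.00467). The stress kinase gene Plk3 rose by 3.15 ± 0.35 and the death receptor gene Tnfrsf10b by 1.81 ± 0.19. The list had 5 to 7 rises with 1 mouse left out. In the cell death list 12 of 29 rose and 0 fell. Mlkl, which ruptures the membrane in necroptosis, went from -4.00 and -4.01 to 0.24 and -0.50 (3.87 ± 0.39), the pore-forming gene Bak1 from 1.05 and 0.89 to 2.86 and 2.90, and Casp8, the initiator caspase of death receptors, from 0.19 and 0.26 to 1.87 and 1.81. Tnfrsf1a, the TNF receptor, rose by 1.45 ± 0.18. The cell death list had 4, 5, 5 and 8 rises without sham 1, sham 4, control-miRNA 1 and control-miRNA 5, and these 4 genes were called in each of those fits.

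Of 29 antioxidant genes, many of them targets of NRF2, 11 rose and 2 fell (Sod1 and Cat), with a median of 0.79. The carbonyl reductase gene Cbr3 went from -0.66 and -0.63 to 5.04 and 4.02 (5.17 ± 0.42, adjusted p = 0.00147), Akr1b8 from 1.11 and 1.07 to 5.13 and 4.35, and Hmox1, which degrades haem, from 2.20 and 1.85 to 5.27 and 5.35 (3.29 ± 0.34). Txnrd1, thioredoxin reductase, rose by 1.64 ± 0.17. The list had 7, 7, 7 and 10 rises without sham 1, sham 4, control-miRNA 1 and control-miRNA 5. Of 20 heat shock genes 4 rose, led by the small heat shock protein genes Hspb1 (3.24 ± 0.31) and Cryab (1.52 ± 0.22). Of 25 unfolded protein response genes 5 rose. In both lists 20% were called, near the 17.3% of all genes. The amino acid and integrated stress genes Trib3, Chac1 and Asns rose by 3.1 ± 0.51, 2.39 ± 0.44 and 2.80 ± 0.56, while the endoplasmic reticulum chaperone gene Hspa5 was not called and the list median was 0.05. Without 1 mouse the heat shock list had 1 or 2 calls and the unfolded protein list 0 to 3. Cryab lost its call without sham 4, and Trib3, Chac1 and Asns lost theirs without control-miRNA 1 and at least 1 sham mouse (largest adjusted p 0.0638 to 0.112).

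Of 40 genes of respiration and the citric acid cycle 12 fell and 0 rose, with a median of -0.60. The count of falls depended on the processing, while the median stayed from -0.69 to -0.55. It was 3 with no filter on dim probes, 6 with slide column as a covariate, 19 with array brightness as a covariate, 20 with quantile normalization, with the authors' deposited ratios or with probes above background on all 8 arrays, 23 with normexp and 27 with array weights or without the mimic arrays. Idh2 went from 7.02 and 7.07 to 5.97 and 5.99 (-1.06 ± 0.16, adjusted p = 0.00773), Mdh1 from 6.88 and 7.10 to 5.89 and 5.90 and the complex I subunit gene Ndufs1 from 5.44 and 5.52 to 4.63 and 4.68. Sucla2 changed by -1.21 ± 0.18 and a second probe of it by 0.34. The list had 0 calls without either sham mouse, 1 without control-miRNA 1 and 3 without control-miRNA 5, and the 4 named genes lost theirs without either sham mouse (largest adjusted p 0.0709 to 0.128). The medians in those fits lay from -0.61 to -0.57.

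Of 32 fatty acid oxidation genes 4 rose and 3 fell, with a median of -0.01 and 21.9% called, against 17.3% of all genes. The 4 that rose are named here because they had the smallest p, so they do not stand for the list. Pdk4, the kinase that turns off pyruvate dehydrogenase, was at -0.95 and 0.02 in sham mice and at 3.56 and 3.99 in control-miRNA mice (4.24 ± 0.52, adjusted p = 0.00423). The fatty acid binding protein gene Fabp1 rose by 2.30 ± 0.23, Angptl4, an inhibitor of lipoprotein lipase, by 2.22 ± 0.31 and the thioesterase gene Acot2 by 1.35 ± 0.19. Of 27 genes of hypoxia and glycolysis 7 rose and 1 fell, among them the glucose transporter gene Slc2a1 (1.31 ± 0.16), the lactate transporter gene Slc16a3 (1.78 ± 0.19) and the hexokinase gene Hk2, at least 6.08-fold higher. Adm, a vasodilator peptide gene, rose by 2.08 ± 0.40. Acot2, Angptl4 and Adm lost their calls without sham 1 (largest adjusted p 0.0625, 0.0502 and 0.11), Acot2 and Adm also without sham 4, and Adm also without control-miRNA 1. The hypoxia list had 3 rises without sham 1, sham 4 or control-miRNA 1 and 6 without control-miRNA 5.

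Genes of arginine metabolism changed in both directions. Ass1, which makes argininosuccinate in the proximal tubule, went from 8.06 and 8.08 to 6.05 and 5.47 (-2.32 ± 0.22, adjusted p = 0.00208) and Asl, the next enzyme, from 3.91 and 3.93 to 2.11 and 2.20. Arg2, the mitochondrial arginase, went from -3.10 and -3.32 to 1.25 and 2.14 (4.90 ± 0.47) and the cationic amino acid transporter gene Slc7a1 rose by 1.55 ± 0.17. Of the 17 genes of this list 5 rose and 4 fell, and these 4 genes were called in all 4 fits without 1 mouse. In sterol synthesis and uptake 5 of 20 fell and 2 rose. Cyp51, a demethylase of sterol synthesis, went from 3.92 and 3.71 to 0.89 and 0.99 (-2.87 ± 0.30), the cholesterol exporter gene Abcg1 changed by -1.66 ± 0.20, Idi1 by -1.44 ± 0.22 and Insig1 by -1.43 ± 0.28. Idi1 lost its call without sham 1 (adjusted p = 0.077) and Insig1 without sham 1, sham 4 or control-miRNA 5 (largest adjusted p 0.119). The sterol list had 2 to 4 falls and at most 1 rise with 1 of the 4 mice left out. Of 28 lysosome and autophagy genes 3 rose and 4 fell. The autophagosome gene Gabarapl1 changed by -1.71 ± 0.16 and Ctss, a protease of antigen-presenting cells, by 0.96 ± 0.20. Ctss lost its call without sham 1, sham 4 or control-miRNA 1 (largest adjusted p 0.146).

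**Figure D3:**
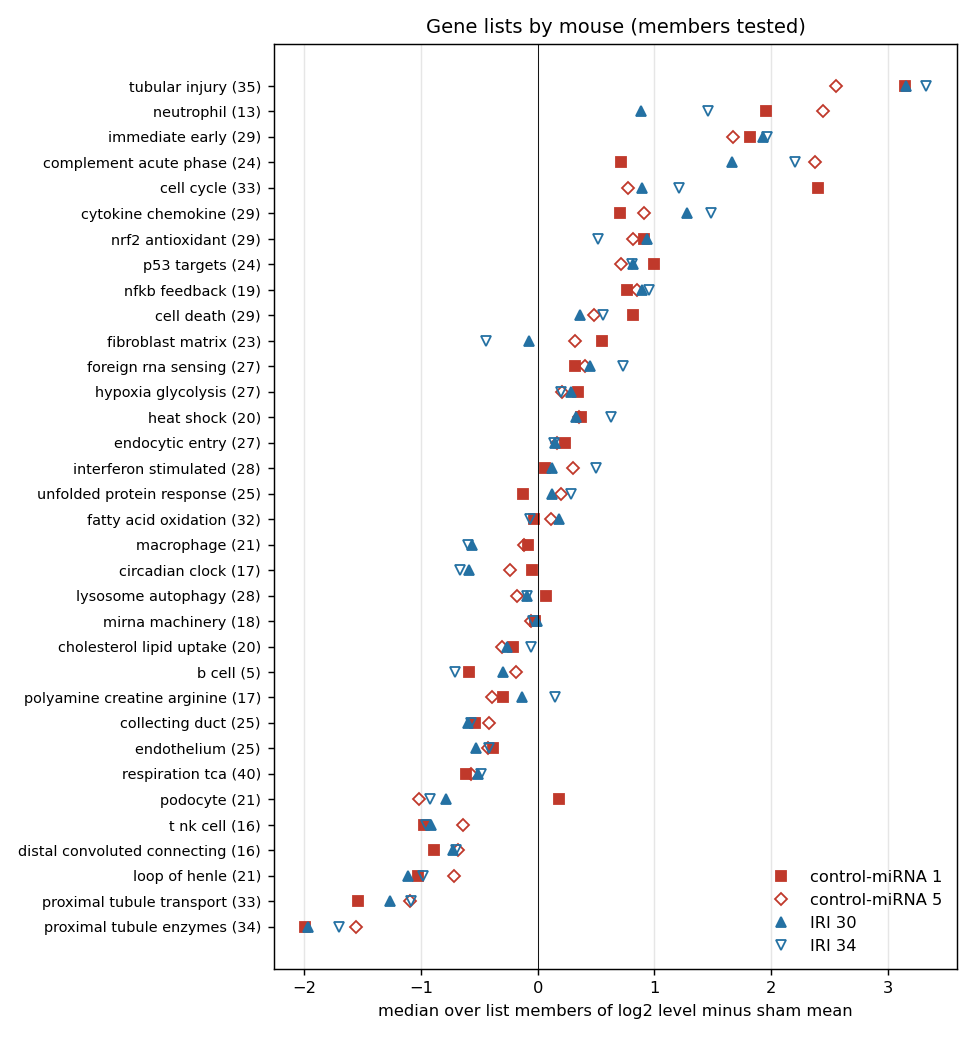
Median over the tested members of each gene list of the log2 level minus the sham mean (horizontal), for each control-miRNA mouse (red) and each IRI mouse (blue), with the number of members tested in brackets. Tubular injury lies highest in all 4 mice, proximal tubule enzymes lie at -2.0 and -1.56 in control-miRNA 1 and 5, and these 2 mice part in cell cycle (2.40 and 0.78), complement and acute phase (0.71 and 2.37) and podocyte genes (0.19 and -1.01).

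The 2 control-miRNA mice differed more from each other than the sham or IRI mice did. In 187 genes they were at least 4-fold apart, against 17 genes in sham and 35 in IRI mice. Control-miRNA 1 was above control-miRNA 5 in 44.6% of all genes. Podocyte genes were lower in control-miRNA 5. The podocyte transcription factor gene Wt1 was at 1.23 in control-miRNA 1 and at -1.55 in control-miRNA 5, with sham at 0.24 and 0.71. It was named after its values were seen and was not called against sham. Of the 21 podocyte genes 20 were lower in control-miRNA 5. The summed level of the list was 29.3 to 62.1 in control-miRNA mice, 51.3 to 57.8 in sham and 39.3 to 41.8 in IRI mice. The renin gene Ren1, of the arteriole beside the glomerulus, was at 1.07 and -1.27. The RNA came from a 30 mg piece of each kidney, and the labels do not say from which region. Of 21 podocyte genes 1 rose (Cd2ap, 0.97 ± 0.18) and 2 fell (Robo2, -0.86 ± 0.21, and Clic5, -1.17 ± 0.29, whose other probe gave 0.24). The median was -0.69 with both mice, -1.01 without control-miRNA 1 and 0.19 without control-miRNA 5, and the 3 calls were lost without either sham mouse (largest adjusted p 0.108 to 0.171).

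Mitotic genes and part of the acute phase genes parted the same mice in opposite directions. Of the 24 complement and acute phase genes 7 were higher in control-miRNA 1, against 44.6% of all genes. Among those were Hp (-0.15 in control-miRNA 1 and -0.86 in control-miRNA 5) and Serpina3n (-3.82 and -4.04). Mki67, the proliferation marker Ki-67, was at 1.41 in control-miRNA 1 and at -1.72 in control-miRNA 5, with sham at -1.48 and -1.78, and Top2a was at 0.52 and -2.39. Neither was called against sham (1.47 ± 1.04 and 2.59 ± 0.97). Serum amyloid gene Saa2 was at -3.28 in control-miRNA 1 and 1.24 in control-miRNA 5, and complement gene C3 at 4.47 and 6.53. Among called genes, the 10 with the largest gap between the 2 mice included the peptide gene Grp (-0.09 and -3.61), the organic anion transporter genes Slc22a7 (-0.03 and 3.14) and Slco4c1 (-6.93 and -3.62), the sterol hydroxylase gene Cyp7b1 (-0.91 and 2.18), the prothrombin gene F2 (-7.05 and -4.10), Cyp2d34 (-6.94 and -4.20) and Lrg1 (2.42 and 4.88). The first value of each pair is control-miRNA 1. Slco4c1, F2 and Cyp2d34 were above background in 1 of these 2 mice. In Slc22a7, Slco4c1, Cyp7b1, F2 and Cyp2d34 control-miRNA 5 lay nearer to sham. All 7 lost their calls without either sham mouse (largest adjusted p from 0.0785 for Lrg1 to 0.221 for F2), and without control-miRNA 1 all but Cyp7b1 and Lrg1 did.

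**Figure D4:**
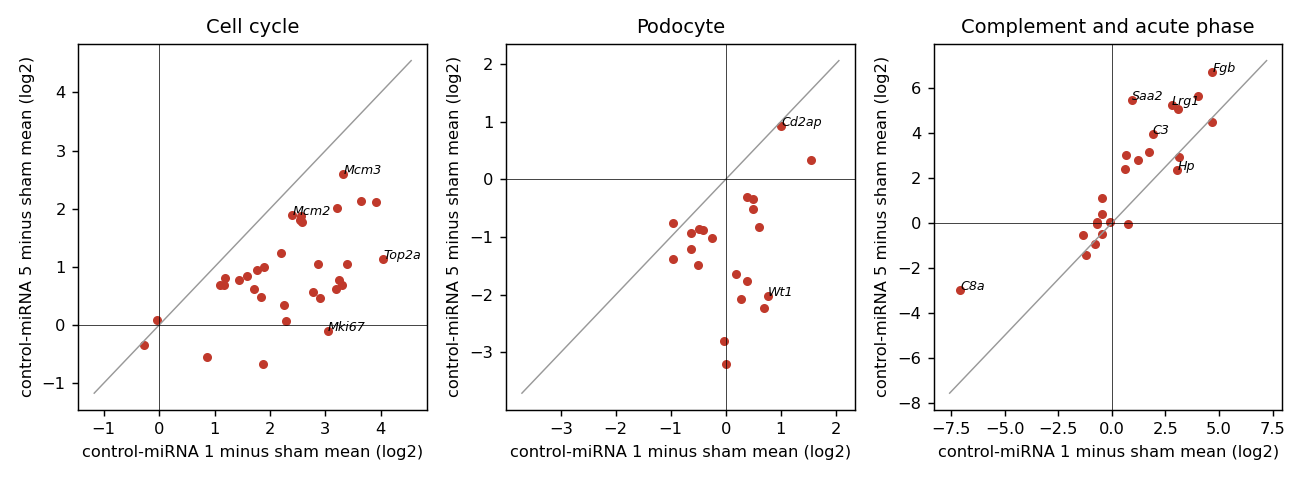
Log2 level minus the sham mean in control-miRNA 5 (vertical) against control-miRNA 1 (horizontal), 1 point per gene, for cell cycle, podocyte, and complement and acute phase genes, with a line of equal values. Cell cycle and podocyte genes lie mostly below the line (32 of 33 and 20 of 21 lower in control-miRNA 5), and several acute phase genes such as Saa2 and Lrg1 lie above it.

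Setting the injected mice against IRI mice asked what the nanoparticles with a control miRNA added to injury. Limma called 0 of 21264 genes (0%), and 870 genes (4.09%) had an unadjusted p under 0.05. Control-miRNA lay above IRI in 52.4% of all genes. Leaving out any 1 of the 4 mice also gave 0. The tests that called any were the fit on probes above background on all 8 arrays, with Adamtsl2, and the fit with array weights, with Adamtsl2, Agap2 and the transcript AK087353. The injury markers differed by little against their intervals. The difference was -0.12 for Havcr1 (95% interval -0.89 to 0.65), 0.09 for Lcn2 (-1.12 to 1.29), 0.22 for Krt20 (-0.74 to 1.18), -0.23 for Timp1 (-0.74 to 0.28) and 0.00 for Spp1 (-0.44 to 0.44). These intervals are wide enough to hold differences of about 1 log2 unit in Lcn2, so the absence of calls does not show that the groups were alike. The 2 groups lay in different rows of the slide, so position and injection cannot be told apart.

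The genes below were picked by smallest p in this comparison, so their small errors and separate levels follow from that choice. Adamtsl2, a matrix glycoprotein gene, was at -1.84 and -1.81 in control-miRNA mice, at -3.92 and -3.84 in IRI mice and at -2.0 and -1.92 in sham mice (control-miRNA minus IRI 2.06 ± 0.15, adjusted p = 0.0625). Smoc2, a matricellular protein gene, was at 0.34 and 0.93 against -1.52 and -1.25, with sham at 0.32 and 0.38. Zfyve28, Agap2 and Slc10a6, a bile acid and steroid sulphate carrier gene, were well above background in both control-miRNA mice and in neither IRI mouse. They were at least 2.08-fold, 7.42-fold and 1.80-fold higher in the former, and Slc10a6 was not well above background in sham either. On the lower side Mab21l3, Rtn4r and Rprm differed by -1.09 ± 0.20, -1.11 ± 0.21 and -0.91 ± 0.18. Cib4 and Fam83e were not well above background in either control-miRNA mouse and were at least 1.07-fold and 1.19-fold lower than in IRI mice, where Cib4 was above background in 1 of 2. The adjusted p of these 5 genes was 0.64 to 0.68. In Adamtsl2, Zfyve28 and Smoc2 the control-miRNA mice lay near sham and the IRI mice below both.

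By list, matrix and neutrophil genes lay higher in the injected mice and cytokines lower, with no single gene called. Of 23 fibroblast and matrix genes 21 lay above IRI, with a median difference of 0.76 against 0.01 over all genes, and 10 had an unadjusted p under 0.05. Postn was at -2.52 and -2.53 in control-miRNA mice and at -4.10 and -3.94 in IRI mice (1.49 ± 0.23, adjusted p = 0.43). Pdgfra, a fibroblast receptor gene, was at -0.18 and -0.47 against -1.24 and -1.53. Of 13 neutrophil genes 12 lay above IRI (median 0.76), and Retnlg was at -1.05 and -0.56 against -2.59 and -2.58. The summed level of the neutrophil list overlapped, at 53.3 to 66.2 in control-miRNA and 46.9 to 53.5 in IRI mice. Of 21 macrophage genes 18 lay above IRI, with a median of 0.45, but Cd14 lay below it (-0.86 ± 0.25). By the group means all 33 cell cycle genes lay above IRI (median 0.40), and 0 had an unadjusted p under 0.05. They differed by more between the 2 injected mice. The list median over the sham mean was 2.40 in control-miRNA 1 and 0.78 in control-miRNA 5. It was 0.89 in IRI 30 and 1.22 in IRI 34, so control-miRNA 5 lay below both IRI mice. Of 29 cytokine and chemokine genes 21 lay below IRI (median -0.32), with Il1f6 at -1.07 and 0.32 against 1.40 and 1.91 (-2.03 ± 0.44, adjusted p = 0.72), and of 19 NF-kB feedback genes 15 did (median -0.26). These lists are described by counts and were not tested as lists. Genes of a list share cells and samples, so their counts are not independent.

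**Figure D5:**
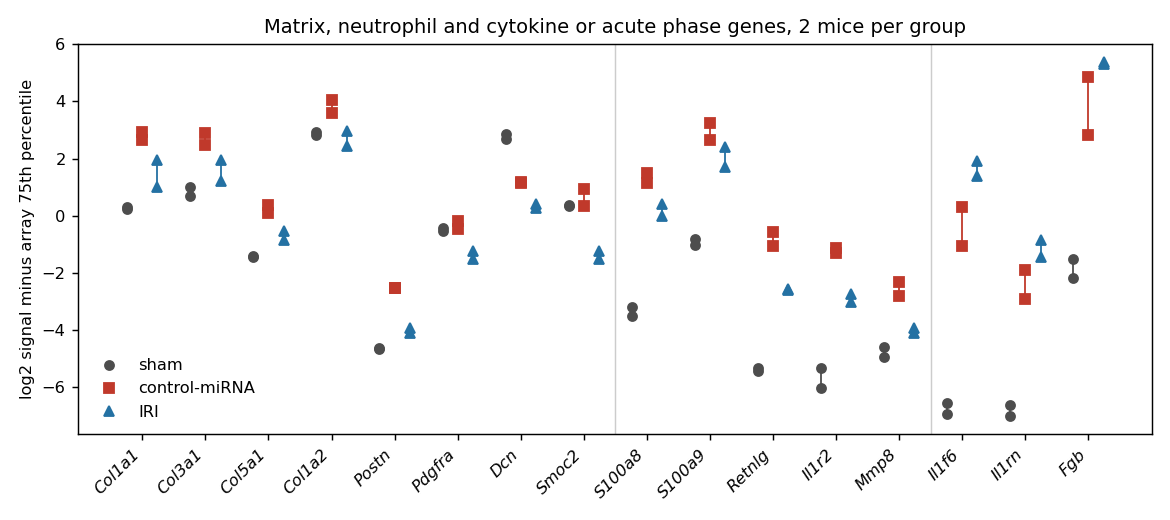
Log2 level (vertical) of 8 fibroblast and matrix genes, 5 neutrophil genes and 3 cytokine or acute phase genes in each sham, control-miRNA and IRI mouse, with a line joining the 2 mice of a group. Col1a1 (2.91 and 2.65 against 1.94 and 1.02) and Retnlg lie higher in control-miRNA than in IRI mice, and Il1f6 and Fgb lie lower, and none of these differences was called.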

How the data were processed

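Total RNA from the left kidney of 8 mice was hybridised to the 8 arrays of 1 Agilent mouse slide in 1 colour, with Cy3-labelled cRNA made from 50 ng, per the labels. All arrays had 1 scan time. Agilent Feature Extraction 12.0.3.1 is the tool named in the submitters' processing notes. Per the file headers, the deposited intensity used here had its background removed and spatial trends on the array corrected, with no scaling from one array to another. The deposited files also flag spots as well above background, outlying or saturated. The series table deposited by the authors gives each probe as a ratio to its own median over the 8 arrays, as its values show, with array medians from 0.992 to 1.02 and unstated scaling between arrays, and it served as an alternative.

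Of 59305 spots per array that were no controls, 79 to 127 were flagged and dropped, and saturation was flagged on 0. Each log2 intensity was taken relative to its array's 75th percentile, and spots of a probe were averaged. A probe was kept where 1 or more groups had it well above background on both arrays (32218 of 56605), and the brightest stood for its gene, which gave 21264 genes. Names came from a RefSeq table of GRCm38.p6 by accession (33762 probes), current symbol (9871) or older symbol (310), and 12662 kept the file's name. Limma 3.58.1 in R 4.3.3 fitted all 8 arrays with a mean per group (6.84 degrees of freedom), with Benjamini-Hochberg adjustment over all genes. For 1 gene (Cxcl11) a spot on 1 array was missing. No value columns were left unused.

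The members and the 40 gene lists were chosen with earlier results of these data known. Genes named are the 15 largest rises and falls among called genes whose groups did not overlap, up to 4 genes per list by smallest p, the 10 called genes with the largest gap between the control-miRNA mice, the 5 of smallest p per direction against IRI, and 6 injury markers. Clone and predicted names were left out. Genes outside this rule are named as examples after their values were seen, and some genes under it are not reported here. Alternatives covered background correction, normalization, filters, covariates, array weights, probe choice and leaving out each mouse.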

Additional observations from a re-analysis of the deposited data

How the results depend on the processing

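No paired analysis was possible because the sham and control-miRNA mice share fewer than 2 mouse numbers, and a number does not name a shared animal or litter. The 3687 calls against sham became 2278 with no filter on dim probes (1249 higher and 1029 lower), 6099 with array weights (3167 and 2932) and, chosen after seeing the data, 5721 without the mimic arrays, with 2704 lower. Without 1 of the 4 mice the count ran from 694 to 2456, higher calls from 430 to 1294, lower calls from 264 to 1162 and calls of at least 2-fold from 694 to 2284. The other settings gave 3126 to 4327 calls. Of the calls reported, 47 had the opposite sign with the median of a gene's probes, 1 with no filter, 1 with probes above background on all 8 arrays, and 0 in each other setting. Against IRI the 0 calls became 1 with probes above background on all 8 arrays and 3 with array weights. The share of calls that were higher, 55.1% in the report's fit, was 62.0% and 63.0% without a sham mouse.

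List medians changed sign in the settings given here. Without control-miRNA 5 the list median became 0.19 for podocytes, -0.25 for adrenal cortex, -0.13 for the unfolded protein response and 0.068 for lysosome and autophagy. Over the fits without 1 of the 4 mice the medians ran from -1.01 to 0.19 for podocytes, from -0.25 to 0.12 for adrenal cortex, from -0.32 to 0.25 for skeletal muscle, from -0.13 to 0.20 for the unfolded protein response, from -0.029 to 0.11 for fatty acid oxidation and from -0.18 to 0.068 for lysosome and autophagy. With the median of a gene's probes it became -0.23 for adrenal cortex, which was -0.019 with normexp and -0.082 without sham 4, and 0.033 for fatty acid oxidation, and Relb became -0.10. Urothelium (0.41 as reported) was -0.21 with probes above background on all 8 arrays and -0.082 without sham 1, and macrophage (-0.03) was 0.10 without sham 1. Fatty acid oxidation was 0.044 without sham 4 and 0.11 without control-miRNA 1. Skeletal muscle was 0.25 without sham 1, 0.027 without control-miRNA 1 and 0.036 with probes above background on all 8 arrays. Under that filter Slpi was -0.14, because its brightest probe, not well above background in sham, was removed. The other causes were not tested. Signal over background limits the genes given as bounds.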

Other observations

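Clock genes, which set daily rhythms of transcription, were measured as 1 further group. Of 17 members 2 rose and 3 fell, with a median of -0.06. Nr1d1, which encodes the repressor REV-ERB alpha, was at 0.31 and -0.05 in sham mice, at -3.32 and -1.55 in control-miRNA mice and at -0.53 and -0.54 in IRI mice (control-miRNA minus sham -2.56 ± 0.51, limma adjusted p = 0.0195). Hlf, a clock output factor, changed by -1.54 ± 0.32, Nfil3, a repressor of the same sites, by 2.26 ± 0.41 and the repressor gene Cry1 by 1.65 ± 0.33. Leaving out sham 1 removed all 4 calls (largest adjusted p 0.0941 to 0.125). The labels give no time of day.

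Lists of other tissues were small. Of 4 adipose genes the lipid droplet gene Cidec rose by 5.28 ± 0.61, from -3.53 and -3.86 to 1.82 and 1.35. The adipocyte genes Fabp4 and Lep were above background in all 4 mice and not called, and Adipoq and Plin1 were above background in none. The summed level of the list was 5.14 to 6.13 in sham and 9.03 to 10.5 in control-miRNA mice. Of 5 adrenal cortex genes Hsd3b1, a steroid dehydrogenase, was at least 8.68-fold lower and Star, a cholesterol carrier, at least 2.04-fold higher, and the call of Star was lost whichever of the 4 mice was left out (largest adjusted p 0.112). Limma called 0 of 7 urothelial genes and 0 of 6 skeletal muscle genes, of which 4 and 1 had an unadjusted p under 0.05.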
